A study of Homo sapiens with 3 samples.

Results

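The MiT/TFE family genes TFE3, TFEB, MITF and TFEC were examined for binding summits of HA-tagged TFE3, that is, for places where a family member binds at the genes of its own family. The 4 genes were fixed by name, and a summit belonged to a gene when it lay in the hg19 span of that gene, given in whole kb, or within 5 kb of either end. Of 62322 summits listed for replicate 1, 23 were found at the 4 genes, and of 72692 listed for replicate 2, 27 were.

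ChIP-seq, the sequencing of DNA that precipitates with a protein, was done in HK-2, an established epithelial line from human kidney proximal tubule. The 2 ChIP samples are libraries of cells that carry an HA-TFE3 gene switched on by doxycycline, precipitated through the HA tag, and 1 more sample is input DNA of the same cells. Doxycycline was given at 0.2 µg/ml or left out for 24 h, and the labels do not say which applied to which library. The submitters' list for each ChIP library gives single-base summits, each with a score, and the input was not analysed here. All libraries come from the same line, so every value below is from cells with an introduced TFE3 copy beside the endogenous gene. Reads of that copy and of the TFE3 gene itself cannot be told apart in the lists. The labels do not say whether the 2 ChIP libraries are separate cultures, and differences between them may therefore be technical only. Read depth is unknown, since the lists hold no counts. With 1 group of ChIP libraries there is no contrast to test, and no p-value is given.

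MiT/TFE proteins are basic helix-loop-helix leucine zipper transcription factors that bind E-box DNA as homodimers or as heterodimers with each other. In fed cells, mTORC1 phosphorylates TFE3, TFEB and MITF at lysosomes and holds them in the cytoplasm. Upon starvation or lysosomal stress they enter the nucleus and switch on lysosome and autophagy genes. TFE3 and TFEB are found in most tissues and are rearranged in a subset of renal cell carcinomas. MITF has several promoters that give isoforms with different first exons, among them a widely used A form and the melanocyte M form. TFEC is best known from macrophages and other myeloid cells.

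In both libraries an HA-TFE3 summit stood within 1 kb of the 5′ end of TFE3, TFEB and MITF. How common this is among other genes was not computed. TFEC had few summits, which is common for a stretch of its length. A summit of one list and a summit of the other formed a pair when they were mutually nearest and no more than 100 bp apart. There were 17 such pairs, of which 3 were at TFE3, 7 at TFEB, 6 at MITF and 1 at TFEC. The score percentile, the rank of a summit within its own list on a scale to 100, is used throughout, because the scale of the score is not given.

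The promoters that RefSeq annotates at the 5′-most start of TFE3, TFEB and MITF are shown because a pair of summits lay within 1 kb of the 5′ end of each of these spans. Each runs from 250 bases before the start to 50 bases after it, in gene direction, on GRCh38.p14. They stand at chrX:49043308-49043607 on the minus strand, chr6:41735559-41735858 on the minus strand and chr3:69739214-69739513 on the plus strand. Capitals mark the motif TGACTCA, the classical AP-1 sequence. The summits are on hg19, so they were not placed on these bases.
TFE3 promoter: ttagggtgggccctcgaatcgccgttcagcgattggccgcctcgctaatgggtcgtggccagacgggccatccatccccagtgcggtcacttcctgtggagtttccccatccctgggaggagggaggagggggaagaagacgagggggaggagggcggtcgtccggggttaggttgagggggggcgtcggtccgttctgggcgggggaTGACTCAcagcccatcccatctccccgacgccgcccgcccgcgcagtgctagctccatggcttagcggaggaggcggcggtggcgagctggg
TFEB promoter: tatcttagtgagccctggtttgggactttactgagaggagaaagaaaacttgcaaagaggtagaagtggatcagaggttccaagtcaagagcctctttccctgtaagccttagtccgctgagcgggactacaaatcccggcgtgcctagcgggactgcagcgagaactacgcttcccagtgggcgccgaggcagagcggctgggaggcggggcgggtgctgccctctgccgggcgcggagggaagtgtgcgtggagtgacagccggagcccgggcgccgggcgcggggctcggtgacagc
MITF promoter: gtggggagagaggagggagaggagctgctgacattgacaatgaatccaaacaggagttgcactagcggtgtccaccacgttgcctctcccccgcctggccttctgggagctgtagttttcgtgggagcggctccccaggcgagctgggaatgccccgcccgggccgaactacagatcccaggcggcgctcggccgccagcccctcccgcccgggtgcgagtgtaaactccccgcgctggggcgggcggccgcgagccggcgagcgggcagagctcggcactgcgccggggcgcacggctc

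RefSeq lists 9 promoters for the 4 genes, 1 for TFE3, 3 each for TFEB and MITF and 2 for TFEC. They were searched on both strands for the E-boxes CACGTG and CATGTG, their longer forms GTCACGTG and TCATGTG, and TGACTCA. The longer forms each contain the shorter E-box, so their matches overlap. Of the 9 promoters, 0 held CACGTG, against 7.26% of all 35116 promoters in the table, and 0 held CATGTG, against 11.1%. The longer GTCACGTG and TCATGTG, also in 0 of the 9, were in 2.40% and 2.92% of all promoters. At such shares 0 of 9 is an ordinary outcome, so a lack of E-boxes at these promoters is not shown. Only the TFE3 promoter held TGACTCA, which starts 42 bases before the annotated start on the gene strand, against 4.95% of all promoters. At that share 1 of 9 is an ordinary outcome too, so the motif is not shown to be particular to TFE3. A match is a string of letters and not a shown binding site, and the windows cover 300 bases each. The printed promoters are rich in G and C, with 68.7% in TFE3, 63.0% in TFEB and 70.3% in MITF, against a median of 58.7% over all promoters. The other 2 of TFEB are the richest of the 9, with 78.7% and 75.3%. The 2 TFEC promoters, with 41.7% and 35.3%, and the other 2 of MITF, with 46.3% and 37.0%, are below that median.

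At TFE3, the gene of the precipitated factor itself, 2 places ranked near or above percentile 90 in both libraries. The gene lies on the minus strand of chromosome X, from kb 48886 to 48901, in band Xp11.23. The pair nearest to the 5′ end was at base 48901170 in replicate 1 and 48901150 in replicate 2, 0.17 and 0.15 kb before the end of the span. Its scores were 26.8 in replicate 1 and 25.9 in replicate 2, at percentiles 91.6 and 89.9. Since the span is given to 1 kb, this pair is at the 5′ end within that precision.

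A second TFE3 pair was inside the gene, 3.46 kb from the 5′ end in replicate 1, at base 48897541, and 3.48 kb from it in replicate 2, at base 48897519. It scored 23.2 and 32.3, at percentiles 88.3 and 94.1. Among all 47396 pairs, ordered by the mean percentile of both libraries, this pair ranked 4881 and the 5′ pair 5132. The remaining pair, near the 3′ end at 13.4 and 13.5 kb, was weak in both libraries, with scores of 6.37 and 2.07 at percentiles 33.9 and 0.84. Its summits, at bases 48887607 and 48887538, were 69 bp apart, the widest pair at TFE3. Between the inner pair and this one neither list had a summit over 9.91 kb.

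Replicate 1 had a further TFE3 summit at base 48899432, 1.57 kb into the gene, with a score of 9.89 at percentile 55.8. The nearest summit of replicate 2 lay 1718 bp away, so it has no counterpart. TFE3 thus had 4 summits in replicate 1 and 3 in replicate 2.

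**Figure D1:**
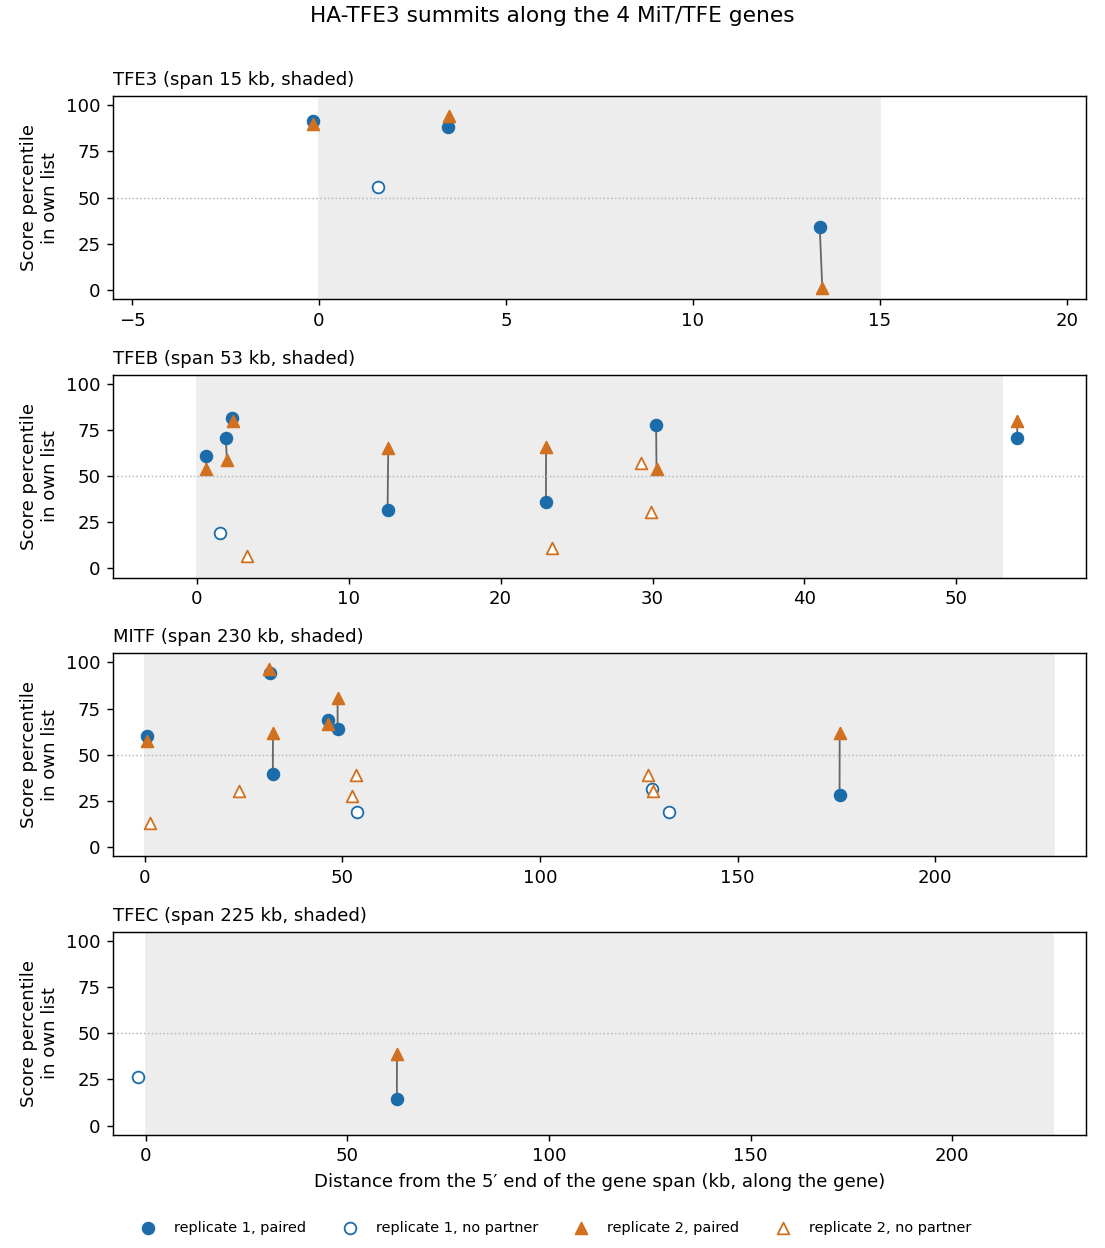
HA-TFE3 summits along TFE3, TFEB, MITF and TFEC, by distance from the 5′ end of the span in kb (x) and score percentile in their own list (y). Circles are replicate 1, triangles replicate 2, filled symbols are paired and joined by a line, and the shaded part is the gene span. Of the 17 pairs, 11 lie in the first 25% of a span or before it, on 26.8% of the windows' length. That division was chosen after the positions had been seen. TFEC holds 1 pair.

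TFEB carried the most pairs of the 4 genes, 3 of the 7 close together near the 5′ end and the other 4 spread over the gene and past its 3′ end. TFEB, a regulator of lysosome formation, lies on the minus strand of chromosome 6 from kb 41651 to 41704, in band 6p21.1. Replicate 1 had 8 summits there and replicate 2 had 11. In the first 2.37 kb were 3 pairs. The outermost of them, at bases 41703386 and 41703383, stood 0.61 and 0.62 kb inside the gene and scored 11.1 in replicate 1 and 9.50 in replicate 2, at percentiles 61.2 and 54.1. Next came bases 41702090 and 41702019, with scores of 13.8 and 10.6 at percentiles 70.9 and 58.6.

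The highest-ranked TFEB pair was at bases 41701661 and 41701629, 2.34 and 2.37 kb from the 5′ end. Its scores of 18.5 in replicate 1 and 17.9 in replicate 2 put it at percentiles 81.7 and 79.8. No TFEB summit of either library exceeded percentile 90. RefSeq annotates TFEB starts at 0.548 and 1.207 kb after the 5′-most start on GRCh38.p14, and also places MIR10398, a microRNA gene, within TFEB.

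Deeper in TFEB were 3 more pairs. Exons and introns were not told apart, because no hg19 annotation was used. The pair at bases 41691442 and 41691397 scored 6.02 in replicate 1 and 12.2 in replicate 2, at percentiles 31.5 and 65.1. A pair at bases 41681017 and 41681008 was similar, with percentiles 36.0 and 65.9. At bases 41673766 and 41673738 the order of the libraries was the other way, with scores of 16.0 and 9.50 at percentiles 77.5 and 54.1. The last TFEB pair, at bases 41649991 and 41649995, was 1 of the flanking summits, about 1 kb past the 3′ end, and ranked second at this gene with percentiles of 70.9 and 80.1.

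Unpaired at TFEB were 1 summit of replicate 1 and 4 of replicate 2. That of replicate 1, at base 41702486 and percentile 19.2, was 467 bp from the nearest summit of replicate 2. In replicate 2 they were at percentiles 6.92, 11.2, 30.3 and 57.1. Their nearest summits in replicate 1 were 303 to 989 bp away, so each stood in the neighbourhood of a pair. The longest stretch of the TFEB window with no summit in either list covered 23.7 kb, from base 41649995 to 41673738 in the 3′ part.

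MITF, the regulator of melanocyte development that is also expressed elsewhere, held the highest-ranked pair of the family. It lies on the plus strand of chromosome 3 from kb 69788 to 70018, and had 9 summits in replicate 1 and 12 in replicate 2. That pair was inside the gene at bases 69819544 and 69819471, 31.5 kb from the 5′ end in both libraries. It scored 31.0 in replicate 1 and 37.7 in replicate 2, at percentiles 94.4 and 96.3, and ranked 2499 among all pairs. Only this pair of the 17 was above percentile 90 in both libraries, against 9.11% of all pairs. Its summits were 73 bp apart, the widest distance among the 17.

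At the 5′ end of MITF, the pair at bases 69788522 and 69788459 was 0.52 and 0.46 kb into the span. Its scores were 10.7 in replicate 1 and 9.90 in replicate 2, at percentiles 60.0 and 57.3. The 5′ end of MITF was therefore occupied by a summit of middle rank in both lists. The pair at the 5′ end of TFE3 ranked higher in each library.

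Other MITF pairs followed within the first 48.8 kb. The pair at bases 69820378 and 69820418, less than 1 kb from the highest-ranked one, had percentiles of 39.4 in replicate 1 and 62.0 in replicate 2. At bases 69834438 and 69834405 the libraries were close, with scores of 12.9 and 12.6 at percentiles 68.8 and 66.9. The next pair, at bases 69836764 and 69836771, had percentiles of 63.9 and 81.0. A single pair stood far from these, at bases 69963774 and 69963803 and 176 kb from the 5′ end, with scores of 5.80 and 11.1 at percentiles 28.3 and 62.0.

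At MITF, 3 summits of replicate 1 and 6 of replicate 2 were unpaired, the highest of them at percentile 38.9 of its list. Those at base 69841564 of replicate 1 and 69841433 of replicate 2 were 131 bp apart and so just missed the limit of 100 bp. A loose group between 127 and 133 kb held 2 summits of replicate 1 and 2 of replicate 2, of which the closest were 313 bp apart. The longest stretch without a summit in either list ran over 73.8 kb, from base 69841564 to 69915384. On GRCh38.p14, RefSeq places 2 further MITF starts 24.3 and 197 kb after the first. The distance of a summit from these starts was not computed, because the builds differ.

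TFEC, on the minus strand of chromosome 7 from kb 115575 to 115800, had 2 summits in replicate 1 and 1 in replicate 2. Its pair was at bases 115737699 and 115737673, 62.3 kb from the 5′ end, with scores of 4.54 in replicate 1 and 6.95 in replicate 2. Both were in the lower part of their lists, at percentiles 14.5 and 38.9. The other summit of replicate 1, at base 115801919 and percentile 26.2, was 1.92 kb before the 5′ end, and the nearest summit of replicate 2 was 7371 bp away. Over 168 kb of the 3′ part of the window neither list held a summit. How much of that stretch can be mapped was not measured, so it is not shown to lack binding.

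**Figure D2:**
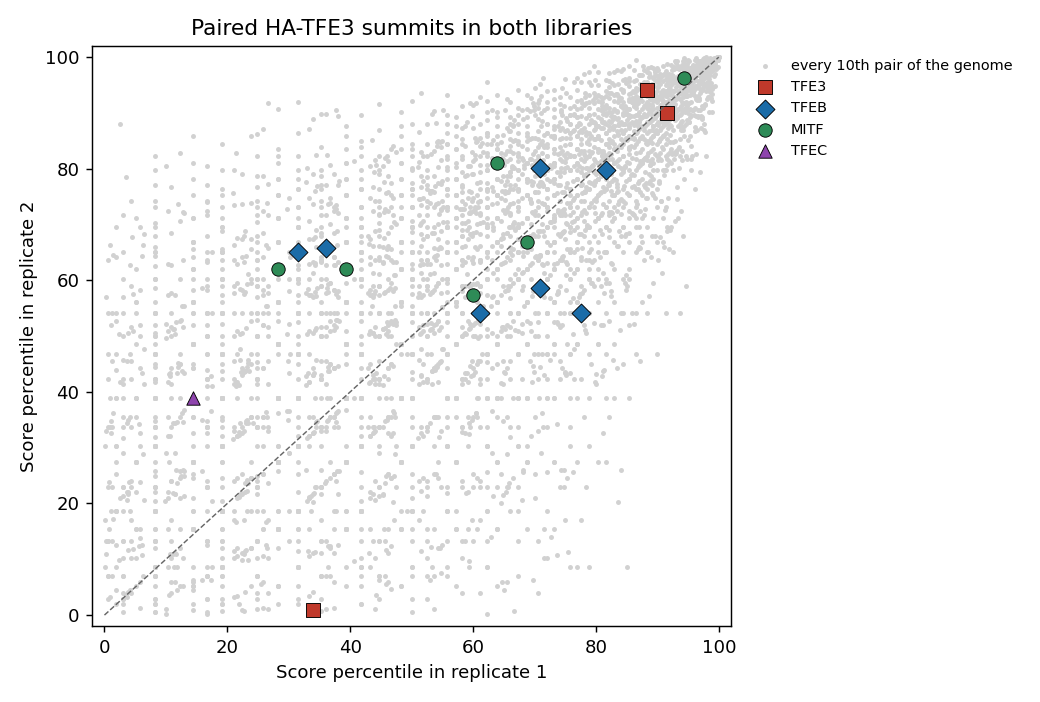
Score percentile of each paired summit in replicate 1 (x) and replicate 2 (y). Coloured symbols are the 17 pairs at TFE3, TFEB, MITF and TFEC, grey points are every 10th pair of the genome, and the dashed line marks equal percentiles. The best MITF pair and 2 TFE3 pairs stand at the upper right, and the TFEC pair and 1 TFE3 pair stand low.

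The 2 libraries found these summits about as often in common as they did elsewhere. Of the 23 summits of replicate 1 at the 4 genes, 17 were paired, or 73.9% (95% exact binomial interval 51.6 to 89.8), against 76.1% of all summits used of that list. Of the 27 of replicate 2, 63.0% were paired (42.4 to 80.6), against 65.2% of the whole list. The intervals hold counting error alone, and summits close to each other are not independent. Paired summits at the 4 genes were a median of 29 bp apart and ranged from 3 to 73 bp, against a median of 26 bp over all pairs.

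Paired summits at the 4 genes ranked above those without a partner, as they did over whole lists. The median percentile of paired summits was 63.9 in replicate 1, where the 6 others had 22.7. In replicate 2 the medians were 65.1 for the paired and 30.3 for the 10 unpaired summits. Over the whole lists the medians of paired and unpaired summits were 59.1 and 24.8 in replicate 1, and 64.3 and 27.4 in replicate 2. Of the 17 pairs, 9 had the higher percentile in replicate 2 and 8 in replicate 1, and over all pairs 57.2% were higher in replicate 2. At the 4 genes the median difference between libraries, without its sign, was 12.3 points, against 11.7 over all pairs.

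The share of strong summits at the 4 genes was near that of the whole lists. Above percentile 90 there were 2 of 23 in replicate 1, 1 each at TFE3 and MITF, against 9.94% of that list. In replicate 2 there were 2 of 27, again 1 each at TFE3 and MITF, against 9.99%. The TFE3 summit in question was the 5′ one in replicate 1 and the inner one in replicate 2. Of the 17 pairs, 11 were above percentile 50 in both libraries, against 51.1% of all pairs.

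At the 3 genes with several pairs, most pairs lay in the first part of the gene, but at unlike distances from the 5′ end. From 5 kb before the span to the end of the first 25% of its length there were 2 of 3 pairs at TFE3, 4 of 7 at TFEB and 5 of 6 at MITF, and 0 of 1 at TFEC. Together these were 11 of 17 pairs on 26.8% of the windows' length. For single genes this part was 35.0% of the window at TFE3, 29.0% at TFEB and 26.0% at MITF. The first 25% of the span is 3.75 kb at TFE3, 13.25 kb at TFEB and 57.5 kb at MITF. Apart from the 5′ pair, the MITF pairs counted here lay 31.5 to 48.8 kb from the 5′ end. This division was chosen after the positions had been seen, so it is a description only. The pairs within 1 kb of the 5′ end numbered 3, 1 each at TFE3, TFEB and MITF. How many genes of the genome have a pair so close was not computed, because no hg19 annotation was used. These 3 pairs are therefore not shown to be unusual.

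**Figure D3:**
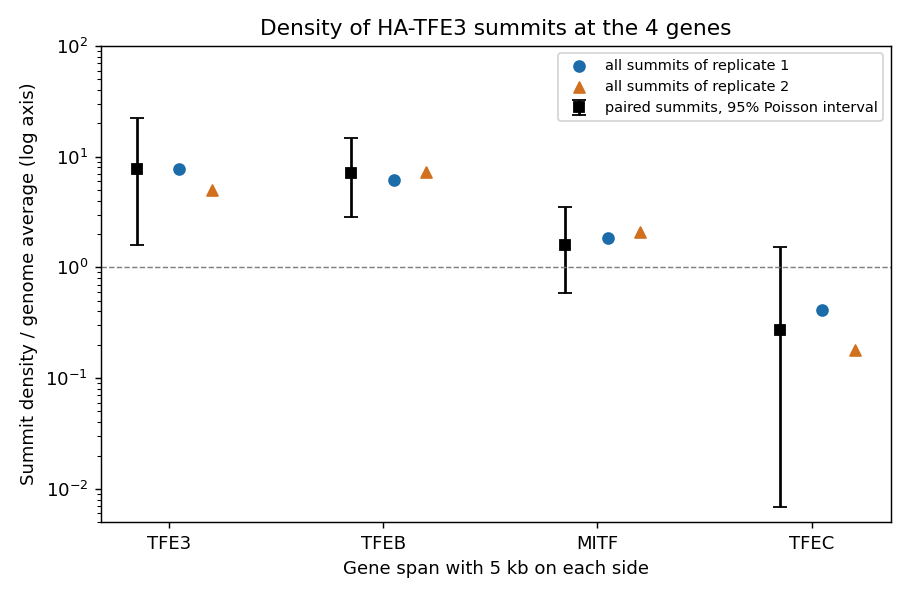
Density of HA-TFE3 summits in each gene span with 5 kb on each side, divided by the average over chromosomes 1 to 22 and X (log axis). Squares are paired summits with 95% Poisson intervals, circles all summits of replicate 1 and triangles all summits of replicate 2, and the dashed line marks the average. The intervals treat summits as independent. TFE3 lies at 7.69, TFEB at 7.12, MITF at 1.60 and TFEC at 0.273. Among the 10000 best summits per list TFEB is at 0 (not drawn), a value with no interval computed.

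Per length, TFE3 and TFEB were the densest of the 4 genes and TFEC the sparsest. The windows run from 25 to 240 kb, so 1 pair weighs more per Mb in a short window. By count, MITF had more pairs than TFE3. TFE3 had 120 paired summits per Mb of its 25 kb window (95% Poisson interval 24.7 to 351), and TFEB had 111 in 63 kb (44.7 to 229). MITF had 25.0 in 240 kb (9.17 to 54.4) and TFEC 4.26 in 235 kb (0.108 to 23.7). The average over the genome was 15.6. Relative to this average the values were 7.69 for TFE3 (1.59 to 22.5), 7.12 for TFEB (2.86 to 14.7), 1.60 for MITF (0.588 to 3.49) and 0.273 for TFEC (0.0069 to 1.52). The intervals of TFE3 and TFEB lay above the average and those of MITF and TFEC included it. For TFEB this did not hold among the 10000 best summits per list, where it had 0 pairs and a relative density of 0. TFE3 then had 2 pairs and stood at 36.2, a value that rests on these 2 alone. For neither value was an interval computed. A window of 63 kb can hold 0 of so few summits at an average density. TFEB is therefore not shown to lie below the average there. Between neighbours in this order all intervals overlapped. TFEB and TFE3 had intervals above that of TFEC, TFE3 only narrowly, with a lower end of 1.59 against an upper end of 1.52. All these intervals hold counting error alone and treat summits as independent, which summits close to each other are not. Where summits cluster they are too narrow, so they do not decide whether a gene differs from the average or from another gene.

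With all summits of each library, and relative to that library's own average, the density was 6.41 ± 1.97 at TFE3 and 6.74 ± 0.783 at TFEB (SD, n = 2). It was 1.96 ± 0.185 at MITF and 0.296 ± 0.168 at TFEC. TFE3 and TFEB thus differed by less than the spread between libraries, while MITF lay below both and above TFEC by more than that spread. The order of TFE3 and TFEB was not the same in the 2 libraries. In replicate 1 the density was 7.80 at TFE3 and 6.19 at TFEB, and in replicate 2 it was 5.02 at TFE3 and 7.30 at TFEB.

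The surroundings of the genes differed. On chromosome X, which had 6.51 pairs per Mb, TFE3 stood at 18.4 times the chromosome's own average, and at 5.45 times the density of the 1 Mb on either side. TFEB stood at 6.64 times the average of chromosome 6 and 3.13 times its flanks, which held 71 pairs. MITF was 1.58 times the average of chromosome 3, but its flanks held 13 pairs, and against them it stood at 3.85 times. TFEC was at 0.285 times the average of chromosome 7 and at 0.193 times its flanks, which held 44 pairs. Chromosome copy number in HK-2 was not measured here.

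The genome was also cut into tiles of each gene's window length, without overlap, and the pairs in each tile were counted. Tiles with at least the 3 pairs of TFE3 made up 3.64%, and tiles with at least the 7 of TFEB made up 1.68%. At least the 6 pairs of MITF were found in 25.2% of tiles. At most the 1 pair of TFEC was found in 46.1%, so its count is a common one for a stretch of that length. Tiles cover gene-poor regions too and were not restricted to genes, for which no hg19 annotation was used. Chromosomes were taken at full length, so stretches without known sequence count as empty in the tiles and in the genome average. This raises the relative densities and the share of tiles with few pairs, and lowers the share with many. By how much was not measured.

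**Figure D4:**
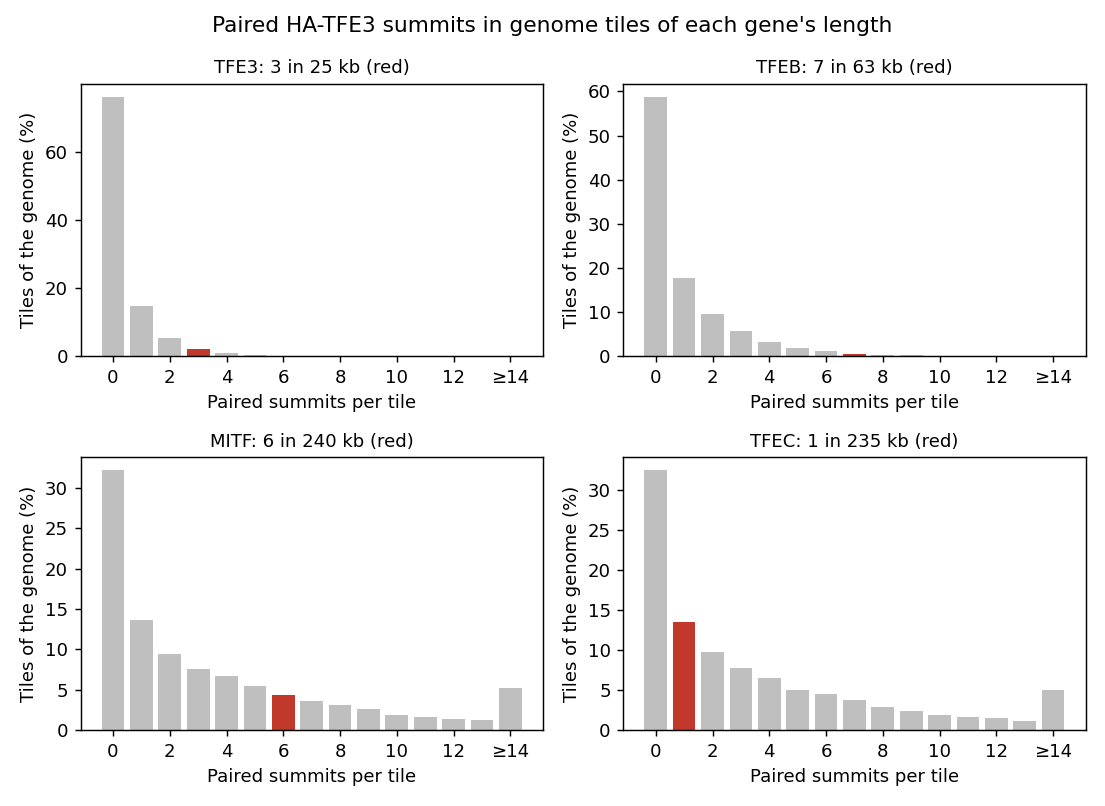
Percentage of genome tiles (y) by the number of paired summits in the tile (x), for tiles as long as the window of each gene, with the bar of the gene's own count in red. The 3 pairs of TFE3 and the 7 of TFEB fall in the thin right part of their distributions, and the 6 of MITF and 1 of TFEC in the broad part.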

How the data were processed

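HA-TFE3 ChIP-seq summits of 2 libraries were analysed, grouped by their titles. The deposited lists hold 1 bp summits with a score. Their build is hg19, per the submitters' processing notes. The scale of the score, the aligner, the peak caller and its threshold, and whether the input served as background, are not given in the sources. Depth and the threshold of peak calling both set which summits are listed.

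The 4 genes and their spans, the tests and the lists were chosen with earlier results of these data known. All 4 genes and all their summits are reported, and the longest empty stretch of each window was taken by rule. Positions were made 1-based, and 35 and 45 summits outside chromosomes 1 to 22 and X were left out, so that 62287 and 72647 remained. Each summit was paired once, with its mutual nearest within 100 bp. Percentiles are mid-ranks. Many summits tie, since the lists hold 1995 and 2095 distinct scores. Shares carry exact (Clopper-Pearson) and densities exact Poisson intervals at 95%. Chromosome lengths and bands were read from the hg19 table in circlize 0.4.16, promoters and gene neighbours from RefSeq GRCh38.p14, where all 4 symbols matched. No coordinate was carried between builds. The pairing was run on simulated lists with summits placed at random and shared summits shifted by less than the limit of 100 bp. Such lists lack the clusters of real ones, so pairing among close summits was not tested. Python 3.11.15, NumPy 2.4.6, pandas 2.3.3, SciPy 1.17.1 and matplotlib 3.10.9 were used. Alternatives were limits of 50, 200 and 500 bp, higher-scoring summits, other margins and each library alone.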

Additional observations from a re-analysis of the deposited data

How the results depend on the processing

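Counts of pairs were recomputed under 7 alternatives, and all summits of each library alone were counted beside them. They stayed within 1.5 times the reported count at limits of 50, 200 and 500 bp, for the span alone, and with 20 kb on each side except at TFEC, where the count was 3. At 50 bp the pair count over the 4 genes was 13, and at 500 bp it was 19. Restricted to scores above each list's median, TFEC had 0 pairs and the 4 genes together 11. With the best 10000 summits per list, TFEB had 0 pairs, TFEC 0, MITF 1 and the 4 genes 3. The density of TFEB relative to the genome was then 0 and that of TFE3, with only 2 pairs, 36.2, with no interval computed for either. A short window can hold 0 of so few summits at an average density, so TFEB is not shown to lie below the average. With all summits of a single library in place of pairs, replicate 1 had 8 at TFEB, 9 at MITF, 2 at TFEC and 23 over the 4 genes, and replicate 2 had 11, 12, 1 and 27. Apart from the 0 of TFEB, no relative density changed its side of the genome average.

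No paired analysis was possible because the lists of 1 group were compared and no test was made. Depth is unknown, so a summit missing from a list is not shown to be unbound. Gene spans are known to 1 kb only.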

Other observations

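Beyond the 5 kb margins, the region before the 5′ end of TFEC held more pairs than TFEC itself. One pair lay 9.3 kb before the span, at bases 115809306 and 115809290 of chromosome 7 (hg19), with scores of 4.999 in replicate 1 and 8.21 in replicate 2, at percentiles 21.7 and 46.7. Another was 13.3 kb before it, at bases 115813332 and 115813303, with scores of 11.02 and 8.02 at percentiles 60.6 and 45.0. Before TFE3, a pair stood at bases 48911008 and 48910988 of chromosome X, 10.01 and 9.99 kb from the span, with scores of 9.89 and 3.44 at percentiles 55.8 and 6.92. RefSeq gives CCDC120 as the next coding gene on that side of TFE3 and TES as that of TFEC. Within 20 kb of MITF and TFEB there was no further summit in either list outside the 5 kb margins. The nearest pair past the 3′ end of MITF was 1192 kb away.

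Scores were coarse at these genes. In replicate 1 the summits at base 69841564 and base 69920548 of MITF and at base 41702486 of TFEB had the same score, 4.83, which 2043 summits of that list carry. In replicate 2 the TFEC summit at base 115737673 and the MITF summits at bases 69841433 and 69915384 had 6.95, the score of 3137 summits. Percentiles of such summits are therefore the middle of a wide block of equal ranks.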
